A study of Mus musculus with 8 samples.

Results

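The small RNA of primary murine hepatocytes was measured in 1 wild-type library and 1 Kap1 KO library, and all tRNA genes and snoRNAs that the hepatocyte table of the study names are described here. They were chosen by class from their names, without use of their counts. The table holds 467 of them, of the 489 that the small RNA tables of the series list together. Of the 467, 371 are tRNA genes and 96 are snoRNAs, which divide by name into 62 box C/D snoRNAs (Snord) and 34 box H/ACA snoRNAs (Snora).

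The series has 8 samples, and 2 of them are the hepatocyte libraries. For the hepatocytes the labels give the genotype, wild type or Kap1 KO, and state that the cells were processed directly after purification; the age, sex and strain of the mice and the means by which Kap1 was deleted are not given there. The values are set beside those of 1 control and 1 Kap1 KD library of Hepa 1-6, a mouse hepatoma line that received a vector with an shRNA against Kap1 or a control vector, which the methods call empty and the labels a control shRNA, and shares no library with the hepatocytes. The table names no protein-coding gene, so neither the loss of Kap1 nor the hepatocyte label could be checked against marker genes in it. The total over all listed sequences was 3028467 counts in wild-type and 11006899 counts in Kap1 KO hepatocytes. These are totals of the table, not the depth of the libraries, and the 2 genotypes had 1 library each, so that no difference between them has a replicate check.

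Relative to the other listed sequences, box C/D snoRNAs stood higher in the Kap1 KO library and most tRNA genes stood lower. The median log2 ratio of Kap1 KO over wild type was 1.10 for box C/D snoRNAs, or -0.06 when the library totals were used as the scale. It was 0.22 for box H/ACA snoRNAs, or -0.95 with library totals. It was -0.53 for tRNA genes, and below 0 with every scale tried, while their summed counts gave -0.08, which lies above 0 with the median of ratios (0.03). In RNA from many cells, fewer cells of a type and less RNA per cell cannot be told apart. Snord88c and Snord88a had the largest ratios among sequences with at least 100 summed counts, and chr13.tRNA978-SerAGA had the smallest.

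Transfer RNAs are short transcripts of RNA polymerase III that carry amino acids to the ribosome, and most are encoded by many gene copies scattered over the genome and gathered in clusters. Most snoRNAs of vertebrates are cut from the introns of host genes transcribed by RNA polymerase II: box C/D snoRNAs guide the methylation of ribose in ribosomal RNA, and box H/ACA snoRNAs guide the conversion of uridine to pseudouridine. KAP1, the product of Trim28, is a nuclear corepressor known for the silencing of transposable elements through KRAB zinc finger proteins, and it also takes part in the control of transcription elongation by RNA polymerase II.

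The box C/D snoRNAs with the largest ratios and a reference snoRNA near 0, or at -1.18 with library totals, are shown first, since their ratios lie far apart. The lines give Snord88c (chr7:51505222-51505311), Snord88a (chr7:51505505-51505594) and Snord12 (chr2:166890776-166890865), all on the plus strand of the mm9 build, then Snord34 (chr7:52381971-52382040, minus strand) and Snord104 (chr11:106362307-106362376, plus strand). Capitals mark TGATG within the first 20 bases and CTGA within the last 15 bases, the letters of the C and D boxes that give this kind its name.
Snord88c: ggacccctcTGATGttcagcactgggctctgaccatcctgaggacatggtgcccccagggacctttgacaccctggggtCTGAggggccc
Snord88a: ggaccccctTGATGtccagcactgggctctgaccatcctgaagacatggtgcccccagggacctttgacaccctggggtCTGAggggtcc
Snord12: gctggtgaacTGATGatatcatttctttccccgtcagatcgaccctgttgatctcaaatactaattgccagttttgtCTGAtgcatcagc
Snord34: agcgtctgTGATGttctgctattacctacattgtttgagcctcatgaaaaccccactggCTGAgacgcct
Snord104: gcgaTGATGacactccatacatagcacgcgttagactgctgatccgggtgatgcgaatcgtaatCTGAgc

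Snord88c and Snord88a differ at 5 of 90 bases, so reads may be shared or split between them and the values of each are uncertain. TGATG was found in the first 20 bases of 49 of the 56 box C/D snoRNAs with a sequence (87.5%), against 0 of 31 box H/ACA snoRNAs and 3 of 289 tRNA genes (1.04%). CTGA was found in the last 15 bases of 50 box C/D snoRNAs (89.3%), 1 box H/ACA snoRNA (3.23%) and 12 tRNA genes (4.15%).

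The next lines give the 2 box H/ACA snoRNAs that were at least 2-fold lower in the Kap1 KO library (Snora65 falls under 2-fold with the median of ratios), Snora65 (chr2:32818811-32818940) and Snora41 (chr1:63225578-63225709), both on the plus strand. Capitals mark the last ACA within the final 8 bases, which 29 of 31 box H/ACA snoRNAs with a sequence held (93.5%), against 5 box C/D snoRNAs (8.93%) and 27 tRNA genes (9.34%).
Snora65: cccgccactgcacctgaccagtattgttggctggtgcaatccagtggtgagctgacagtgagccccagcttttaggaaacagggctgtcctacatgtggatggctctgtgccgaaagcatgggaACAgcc
Snora41: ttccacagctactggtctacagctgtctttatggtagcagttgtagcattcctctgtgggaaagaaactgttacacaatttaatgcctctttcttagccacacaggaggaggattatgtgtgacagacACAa

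The tRNA genes shown next are pairs whose sequences are equal while their ratios differ, together with the gene with the largest ratio among those with at least 100 summed counts. They are chr13.tRNA981-AspGTC (chr13:22027366-22027437, minus strand) and chr5.tRNA1316-AspGTC (chr5:125885977-125886048, minus strand), and chr14.tRNA192-ProTGG (chr14:51710322-51710393, plus strand) and chr3.tRNA92-ProTGG (chr3:51162276-51162347, plus strand). The gene with the largest ratio is chr11.tRNA372-ProTGG (chr11:67104641-67104712, plus strand). Capitals mark the anticodon.
chr13.tRNA981-AspGTC: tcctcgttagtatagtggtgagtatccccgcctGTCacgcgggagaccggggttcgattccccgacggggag
chr5.tRNA1316-AspGTC: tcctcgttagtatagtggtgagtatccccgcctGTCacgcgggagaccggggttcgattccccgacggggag
chr14.tRNA192-ProTGG: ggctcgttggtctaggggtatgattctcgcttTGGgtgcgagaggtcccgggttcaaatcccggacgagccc
chr3.tRNA92-ProTGG: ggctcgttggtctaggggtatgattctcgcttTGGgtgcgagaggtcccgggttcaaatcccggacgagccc
chr11.tRNA372-ProTGG: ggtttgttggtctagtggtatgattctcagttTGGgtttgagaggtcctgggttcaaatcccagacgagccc

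The Asp pair and the first 2 Pro genes are equal over all 72 bases of the gene. Their surroundings differ: in the 200 bases before the gene, 62 bases of the Asp pair and 55 of the Pro pair were the same at the same place. GGTTCGA, letters of the inner promoter and T loop of tRNA genes, was found in 200 of 289 tRNA genes with a sequence (69.2%) and in 0 box C/D and 0 box H/ACA snoRNAs. The search that located tRNA genes required TTCGA or TTCAA in the T loop, so this difference from snoRNAs was partly fixed in advance.

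Of the 467 listed sequences, 261 had at least 50 counts summed over the pair, 166 tRNA genes and 95 snoRNAs, and all ratios below are of these. A ratio is the count in the Kap1 KO library over the count in the wild-type library after TMM scaling, which took 1.62 as the ratio between the libraries where their totals give 3.63. With library totals all log2 ratios would shift by -1.16, and with the median of ratios, which equals the authors' own factor, by 0.11; a log2 ratio between 0 and 1.16 therefore changes side with library totals. Intervals are exact 95% binomial (Clopper-Pearson) intervals of the ratio, and they cover counting error only. The 206 sequences under the minimum held 962 counts in the wild-type and 1510 counts in the Kap1 KO library. Among them are the 32 sequences with 0 counts in wild type and the 20 with 0 counts in Kap1 KO, so that no ratio below has a 0 in it.

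Called higher or lower means at least 2-fold here. The Kap1 KO library was higher for 48 of the 261 sequences (18.4%) and lower for 41 (15.7%). With library totals these counts were 8 and 150, and with the median of ratios 57 and 29. Box C/D snoRNAs made up 36 of the 48, and none of the 41: 36 of all 62 (58.1%) were higher and 58 of 62 lay above 0, although with library totals only 29 lay above 0, 8 were higher and 4 lower. Among box H/ACA snoRNAs, 1 of 33 was higher and 2 were lower, or 0 and 14 with library totals and 1 and 1 with the median of ratios. Of the 166 tRNA genes, 11 were higher (6.63%) and 39 lower (23.5%), or 0 and 132 with library totals and 14 and 28 with the median of ratios. By their medians the order of the kinds was box C/D snoRNAs, box H/ACA snoRNAs and tRNA genes, and a change of scale moves all of them alike. By summed counts box H/ACA snoRNAs, at -0.09, did not stand above tRNA genes, at -0.08; with the median of ratios both lay above 0.

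**Figure D1:**
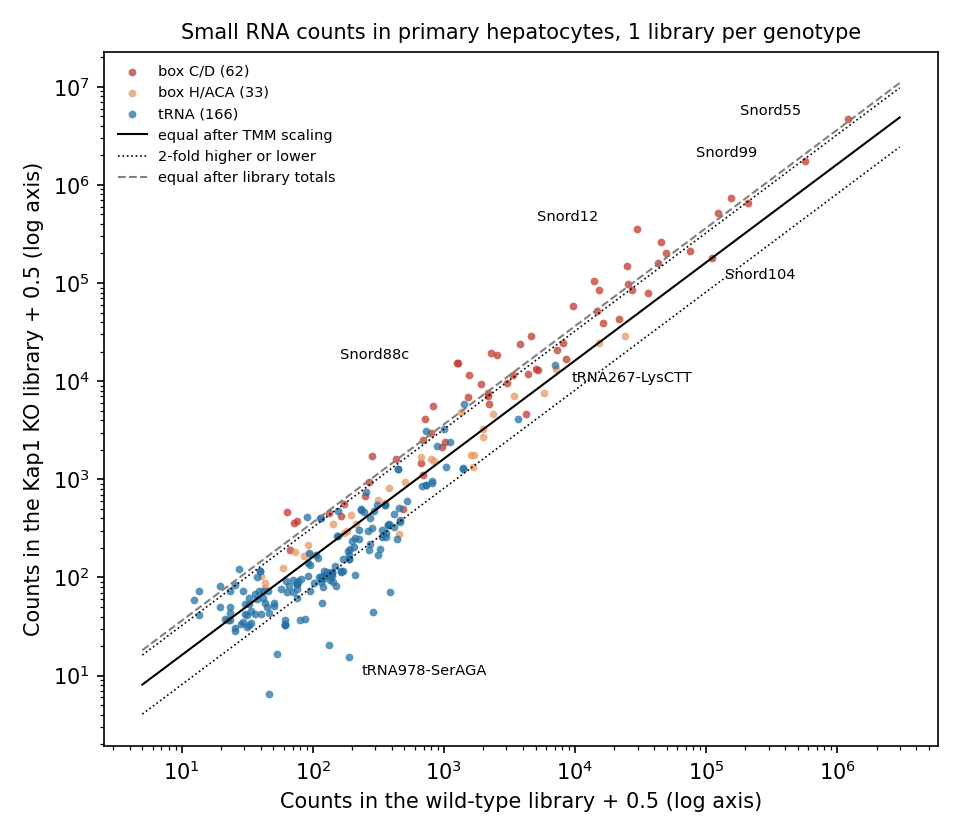
Counts of the 261 sequences in the wild-type library (x, log axis) and the Kap1 KO library (y, log axis), 1 point per sequence, with lines for equal levels after TMM scaling, for 2-fold differences and for equal levels after library totals. Most box C/D snoRNAs lie above the TMM line and near the line of library totals, and most tRNA genes lie below both.

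The distance between the medians of the kinds does not depend on the scale between the libraries. The box C/D median exceeded the tRNA median by 1.63 on the log2 scale (95% interval from order statistics across sequences, 1.35 to 2.17). It exceeded the box H/ACA median by 0.89 (0.59 to 1.46). The box H/ACA median in turn exceeded the tRNA median by 0.74 (0.44 to 1.04), a distance that is absent from the summed counts given above. Sequences of 1 library are not replicates, and these intervals describe the spread across sequences.

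In shares of all counts, the box C/D snoRNAs went from 96.0% in wild type to 98.3% in Kap1 KO, the box H/ACA snoRNAs from 2.44% to 1.02%, and the tRNA genes from 1.54% to 0.649%. The counting intervals of these shares do not overlap. For tRNA genes and box H/ACA snoRNAs alike, the share in the Kap1 KO library was less than the share in wild type. The medians and the sums do not always point the same way: the summed counts of box H/ACA snoRNAs gave a log2 ratio of -0.09 where their median was 0.22; with the median of ratios the former also lay above 0, and with library totals both lay below.

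**Figure D2:**
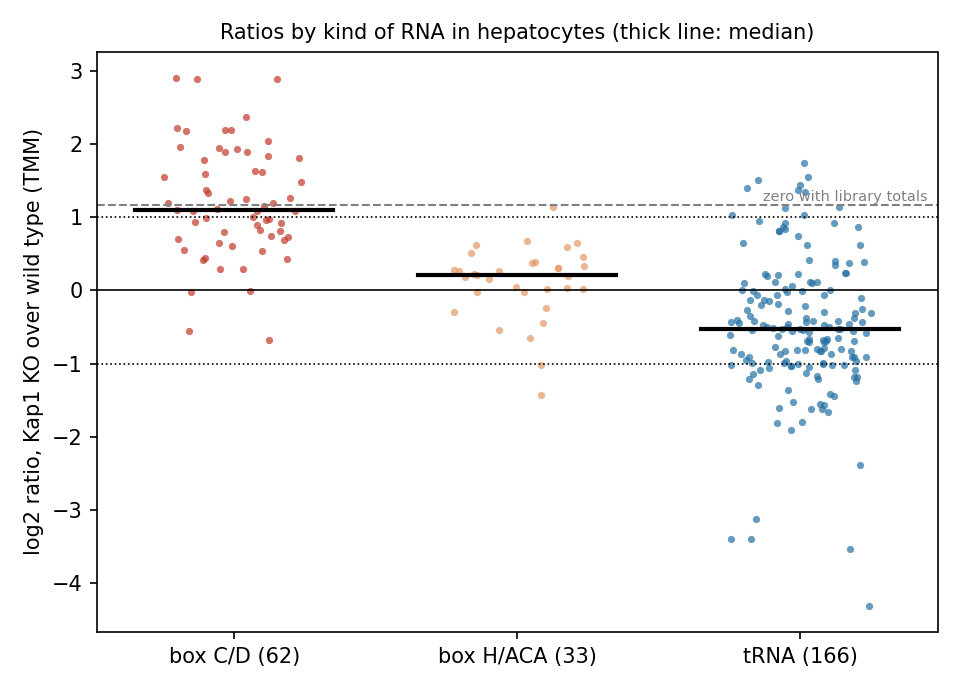
Log2 ratios of Kap1 KO over wild type (TMM) for 62 box C/D snoRNAs, 33 box H/ACA snoRNAs and 166 tRNA genes, 1 point per sequence, with thick lines for medians. The medians are 1.10, 0.22 and -0.53, and the dashed line shows where 0 would lie with library totals, above the medians of all 3 kinds.

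Snord88c and Snord88a lie in introns of 2410002F23Rik, close together. Snord88c had 1259 counts in wild type and 15295 in Kap1 KO, a ratio of 7.49 (7.07 to 7.94). Snord88a had 1278 and 15398 counts, a ratio of 7.43 (7.02 to 7.87). As near-identical neighbours, they cannot be taken as separate measurements. Snord12, which overlaps an annotated exon of its non-coding host gene Zfas1, had 29654 and 356080 counts, a ratio of 7.41 (7.32 to 7.50). Reads of the host transcript may be counted in its region, named as extended by 200 bases, which was not tested. Snord93, for which no host gene was found, had 1544 and 11695 counts, a ratio of 4.67 (4.43 to 4.93). These snoRNAs, with Snord34 below, were the 5 with the largest ratios, and all 5 stayed at least 2-fold higher with library totals, under which 8 box C/D snoRNAs did.

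Rpl13a encodes a protein of the large ribosomal subunit, and it hosts 4 listed snoRNAs, 3 of which were higher, or 2 with library totals. All 4 are box C/D snoRNAs, a kind of which 36 of 62 (58.1%) were higher, or 8 with library totals. Snord34 had 2303 counts in wild type and 19351 in Kap1 KO, a ratio of 5.18 (4.96 to 5.41). It overlaps an annotated exon of Rpl13a, so reads of the host transcript may be counted in it as well. Snord35a had 2533 and 18533 counts, a ratio of 4.51 (4.33 to 4.71). Snord32a had 25376 and 98368 counts, a ratio of 2.39 (2.36 to 2.42). Snord33 stood apart from its neighbours, with 8499 and 16855 counts and a ratio of 1.22 (1.19 to 1.26), which is below 1 with library totals. The 4 snoRNAs of this host thus spanned log2 ratios from 0.29 to 2.37. Snord34 lies within 200 bases of both Snord35a and Snord33. Their regions, named as extended by 200 bases, may therefore share reads, so these may not be separate values.

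Snhg12, a non-coding host gene, held 1 box C/D snoRNA above 0 and 3 box H/ACA snoRNAs on both sides of it. Snord99 had 564670 and 1737884 counts, a log2 ratio of 0.92, or -0.24 with library totals. Snora44, a box H/ACA snoRNA, had 1351 and 4842 counts, a log2 ratio of 1.14, or -0.02 with library totals. Snora61 had 7124 and 13414 counts, a log2 ratio of 0.22, or -0.95 with library totals. Snora16a had 23972 and 28585 counts, a log2 ratio of -0.44. Snora44 was the 1 box H/ACA snoRNA that was at least 2-fold higher. It lies within 200 bases of Snora61, so their extended regions may share reads as well. The 3 box H/ACA snoRNAs of this host, and the snoRNAs of the hosts described next, were chosen after their values were seen.

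Other hosts also held snoRNAs with unequal ratios. Rack1, whose product binds the small ribosomal subunit, holds Snord95, with 14075 and 104583 counts and a ratio of 4.58 (4.50 to 4.67). Its other listed snoRNA, Snord96a, had 27090 and 84288 counts and a ratio of 1.92 (1.89 to 1.95). Nop56 encodes a core protein of the box C/D particle itself, and its Snord110 had 45608 and 264742 counts and a ratio of 3.58 (3.55 to 3.62). The non-coding host 2410006H16Rik holds Snord65, with 697 and 2523 counts and a ratio of 2.23 (2.05 to 2.43). It also holds Snord49b, with 75310 and 211788 counts and a ratio of 1.74 (1.72 to 1.75). Snord96a, Snord65 and Snord49b lay below 1 with library totals, while Snord95 and Snord110 did not.

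The kind of host gene made little difference to the median. For box C/D snoRNAs it was 1.10 in ribosomal protein genes (19 snoRNAs), 1.09 in non-coding host genes (11) and 1.14 in other host genes (28), and all 3 lay below 0 with library totals. For box H/ACA snoRNAs the same medians were 0.04, 0.24 and 0.26, also below 0 with library totals. The difference between the kinds of snoRNA was thus present within each kind of host.

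The most counted snoRNAs carried most of the table. Snord55 alone held 40.0% of all counts in wild type and 42.6% in Kap1 KO, with 1211013 and 4683801 counts and a ratio of 2.39 (2.38 to 2.39). Snord58b, hosted by Rpl17, had 154468 and 731547 counts and a ratio of 2.92 (2.91 to 2.94). Snord47, the 1 listed snoRNA of Gas5, a non-coding host gene named for its transcript in growth-arrested cells, had 124033 and 521054 counts and a ratio of 2.59 (2.58 to 2.61). Snord49a had 208763 and 660249 counts and a ratio of 1.95 (1.94 to 1.96), which is below 1 with library totals. The 10 most counted sequences held 85.0% of counts in wild type and 86.7% in Kap1 KO, so that the totals follow a few snoRNAs.

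The 3 snoRNAs that the study used as references in RT-qPCR did not keep a constant ratio to each other. Snord104 had 111168 counts in wild type and 177837 in Kap1 KO, a ratio of 0.987 (0.979 to 0.994), or above 1 with the median of ratios. With library totals its log2 ratio was -1.18, at least 2-fold lower. Snord35a, given above with Rpl13a, had a ratio of 4.51. Snord53, in an intron of Wdr43, had 63 and 469 counts and a ratio of 4.56 (3.52 to 6.07). Snord104 and the other two were therefore more than 4-fold apart in these libraries, and no change of scale alters that distance.

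Of the 95 snoRNAs, 2 were at least 2-fold lower, or 18 with library totals, under which 29 lay above 0. Snora41, in an intron of the translation elongation factor gene Eef1b2, had 455 counts in wild type and 274 in Kap1 KO, and was 2.69-fold lower (2.31 to 3.14). Snora65, hosted by the ribosomal protein gene Rpl12, had 1660 and 1330 counts and was 2.02-fold lower (1.88 to 2.18), which is under 2-fold with the median of ratios. Both also had fewer counts in the library with the larger total. Snord67, Snora30 and Snord22 followed in the order of ratios, none of them 2-fold lower. Snord67 had 490 and 498 counts and a log2 ratio of -0.67. Snora30 had 1693 and 1755 counts and a log2 ratio of -0.65. Snord22, or U22, which takes part in the processing of ribosomal RNA and is hosted by Snhg1, had 4192 and 4632 counts and a log2 ratio of -0.55.

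In the lists used here, Snord22 was the only member of the pre-rRNA processing snoRNAs and of the Snhg1 group. Snord64, the only listed snoRNA of an imprinted locus, comes from the Prader-Willi region of chromosome 7 and had 66 and 188 counts, a ratio of 1.75 (1.32 to 2.36), or below 1 with library totals. The Snord115 and Snord116 families, known from brain, and the scaRNAs of Cajal bodies had 0 listed members.

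Length separated the kinds of snoRNA and did not order the ratios within them. Across all 95 snoRNAs, Spearman's rho between ratio and length was -0.559, where box H/ACA snoRNAs are the longer kind. Within box C/D snoRNAs it was -0.045 (n = 62) and within box H/ACA snoRNAs -0.015 (n = 33). The points share 1 library per genotype and are not independent. Among tRNA genes rho between ratio and length was -0.279 (n = 166). The GC content of the sequence was weakly related to the ratio, with rho at -0.081 over 87 snoRNAs and 0.057 over 130 tRNA genes.

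Classes of length depended on where they were cut, since located snoRNAs are 1 base longer than the table gives. With that base added, the box C/D median was 1.09 from 60 to 74 bases (25 snoRNAs), or below 0 with library totals, 1.24 from 75 to 89 bases (20) and 1.63 from 90 to 119 bases (13). Without it 4 snoRNAs leave the last of these classes, and its median was 1.09 (9), or below 0 with library totals. The median was 0.49 for the 4 of 120 bases or more, or below 0 with library totals, and this class is too small to carry a trend.

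**Figure D3:**
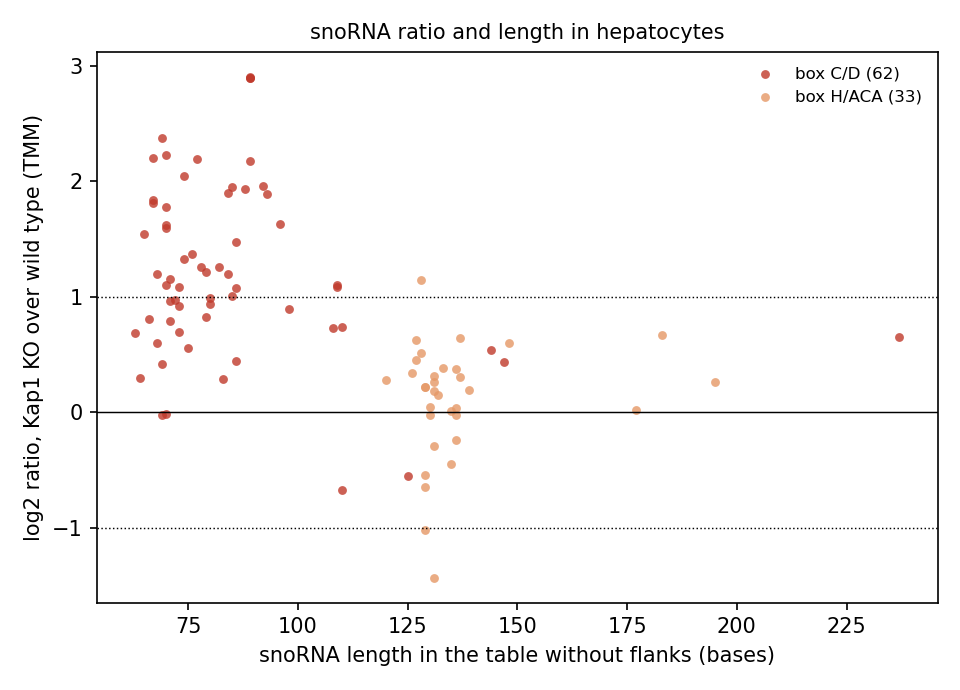
Log2 ratio of Kap1 KO over wild type (y, TMM) against the length of the snoRNA in the table without flanks in bases (x), 1 point per snoRNA, for 62 box C/D and 33 box H/ACA snoRNAs. The kinds differ in length and in ratio, and within each kind rho is near 0 (-0.045 and -0.015).

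More counted snoRNAs tended to have larger ratios over all 95, with rho at 0.370, and the kinds differed in this. For box C/D snoRNAs rho was 0.136. For box H/ACA snoRNAs it was -0.357, in the opposite direction. The median was 0.45 for the 25 least counted snoRNAs, or -0.71 with library totals. It was 1.26 for the 17 most counted, or 0.09 with library totals. Among tRNA genes rho between ratio and counts was -0.008 (n = 166).

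The tRNA genes differed by isotype, that is, by the amino acid they carry. Of the 16 isotypes with at least 3 genes over the minimum, 12 had a median below 0, and 16 with library totals. Tyr had the lowest of these, at -1.57, with 6 of 9 genes lower and 9 of 9 below 0. Glu, described below, followed at -0.93, and Ser at -0.91 with 4 of 12 genes lower. Met, which holds the initiator tRNA, and Ala both stood at -0.82. Of their genes, 3 of 9 (33.3%) and 4 of 15 (26.7%) were lower, beside 23.5% of all tRNA genes. Arg was at -0.55 with 9 of 23 genes lower and 22 below 0. With the median of ratios the lower genes were 2 for Ala and 4 for Arg. With library totals they were 9 for Tyr, 12 for Ser, 8 for Met, 14 for Ala and 23 for Arg. Val, at -0.53, and Leu, at -0.35, had 0 genes past 2-fold either way, although Val genes ran from -0.98 to 0.92; with the median of ratios 1 Val gene was past 2-fold, and with library totals 11 of 12 Val and 14 of 15 Leu genes were lower.

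A few isotypes had medians above 0, all of them below 0 with library totals. For comparison, 6.63% of all 166 tRNA genes were higher and 23.5% lower, or 0 higher and 132 lower with library totals. Among the isotypes Pro was highest, with a median of 0.95 and 5 of 11 genes higher and 0 lower. With library totals Pro had a median of -0.22, 0 higher and 4 lower. His had 2 of 4 higher and a median of 0.93, or 0 higher, 1 lower and -0.23 with library totals. Lys, at 0.28, or -0.88 with library totals, held genes on both sides, 2 higher and 3 lower of 10, or 0 and 4 with library totals. Gly, at 0.18, or -0.99 with library totals, had 1 of 12 lower, or 6 with library totals. These 4 isotypes stood above the tRNA median of -0.53. So did Asp, Ile, Leu, Thr and, barely, Val among the isotypes with at least 3 genes, with medians below 0. Within Lys the genes themselves were split.

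The other isotypes with at least 3 genes were Glu, described below, Trp at -0.70 (3 genes), Thr at -0.45 (6), Ile at -0.22 (3) and Asp at -0.16 (4). Isotypes with 2 genes were Cys at -1.55, with both lower, Gln with genes at -3.40 and 0.21, the latter below 0 with library totals, Asn with genes at -0.96 and 0.19, also below 0 with library totals, and selenocysteine, described below. For tRNA-Phe, 0 of 7 listed genes had the minimum, so no ratio was detectable at this depth.

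**Figure D4:**
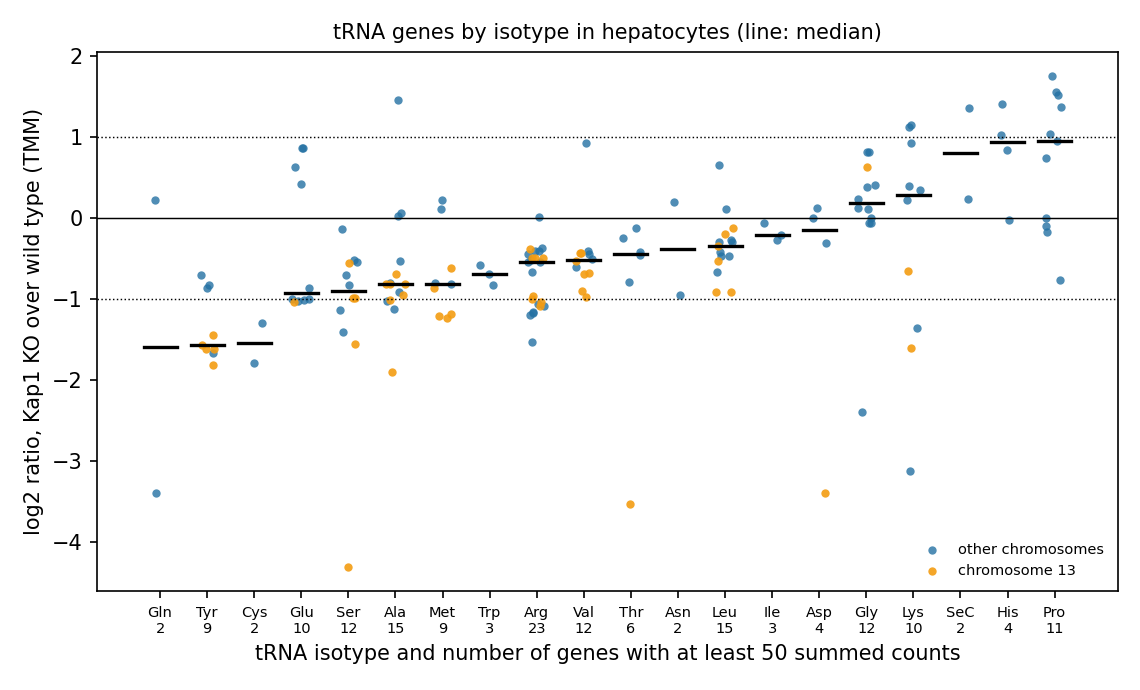
Log2 ratio of Kap1 KO over wild type (y, TMM) of 166 tRNA genes by isotype (x, ordered by median, number of genes under each name), with chromosome 13 genes in orange and lines for medians. Pro and His have the highest medians, 0.95 and 0.93, which fall below 0 with library totals; Tyr is lowest of the isotypes with at least 3 genes, at -1.57.

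Pro genes did not behave alike even by anticodon. The gene chr11.tRNA372-ProTGG, shown above, had 89 counts in wild type and 414 in Kap1 KO, a ratio of 2.86 (2.28 to 3.65). It lies within the annotated gene Myh8, on the same strand, and differs at 9 of 72 bases from the gene chr14.tRNA192-ProTGG, which had 19 and 81 counts and a ratio of 2.58 (1.58 to 4.59). The gene chr3.tRNA92-ProTGG, equal in sequence to chr14.tRNA192-ProTGG, had 122 and 116 counts and was 1.71-fold lower (1.31 to 2.22). Reads of equal genes may be shared or split in the authors' counting, which is not described for small RNA, so the value of each is uncertain. A further copy of that sequence, chr17.tRNA996-ProTGG, had 12 and 59 counts and a ratio of 2.94 (1.61 to 6.20). Summed over the 4 genes of that sequence, the counts were 176 and 329 and the log2 ratio 0.20, under 2-fold, or below 0 with library totals. The gene chr14.tRNA705-ProAGG had 13 and 73 counts and a ratio of 3.36 (1.91 to 6.81). Of the Pro genes, chr3.tRNA92-ProTGG and the last 2 were chosen after their values were seen. Over the 6 Pro-TGG genes the median was 1.16, or -0.01 with library totals.

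The His genes with the most counts lie close together on chromosome 2. The gene chr2.tRNA1431-HisGTG had 729 counts in wild type and 3130 in Kap1 KO, a ratio of 2.65 (2.44 to 2.87). The gene chr2.tRNA1432-HisGTG had 993 and 3275 counts, a ratio of 2.03 (1.89 to 2.19), or below 1 with library totals. These belong to a set of 7 genes of the same sequence whose summed counts ran from 1 to 4268. The median of the 3 His-GTG genes was 1.02, or -0.14 with library totals.

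Selenocysteine tRNA inserts the selenium-containing amino acid at recoded UGA codons, and both of its listed genes had the minimum. The gene chr7.tRNA86-SeCTCA, among the 5 most counted tRNA genes, had 1418 and 5850 counts, a ratio of 2.54 (2.40 to 2.70). The gene chr5.tRNA13-SeCTCA had 93 and 178 counts, a ratio of 1.18 (0.914 to 1.53), which includes 1. With library totals the former had a log2 ratio of 0.18, under 2-fold, and the latter -0.93, a ratio whose interval (0.408 to 0.684) lies below 1.

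The most counted tRNA genes spanned both directions. The gene chr16.tRNA267-LysCTT had 7036 and 14480 counts, a ratio of 1.27 (1.23 to 1.31), or below 1 with library totals. The gene chr5.tRNA1317-AlaTGC had 3689 and 4137 counts and was 1.45-fold lower (1.38 to 1.51). Another Ala-TGC gene, chrX.tRNA375-AlaTGC, had 27 and 121 counts and a ratio of 2.73 (1.81 to 4.37), the 1 Ala gene that was at least 2-fold higher.

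A few tRNA genes were many times lower. The gene chr13.tRNA978-SerAGA had 189 counts in wild type and 15 in Kap1 KO, and was 19.8-fold lower (12.1 to 37.2). Reads of equal genes may be shared or split, so the value of each is uncertain. Summed over the 5 genes of its sequence, the counts were 214 and 47 and the log2 ratio -2.87, beside -4.31 for the gene alone. The gene chrX.tRNA936-GlnTTG had 133 and 20 counts and was 10.6-fold lower (6.71 to 18.2). The gene chr13.tRNA981-AspGTC had 288 and 44 counts and was 10.5-fold lower (7.71 to 14.9). Summed over the 9 genes of its sequence, the counts were 381 and 139 and the log2 ratio -2.15, beside -3.39 for the gene alone. All 3 genes had fewer counts in the library whose total was 3.63 times as large. The gene chrX.tRNA643-LysCTT had 384 and 71 counts and was 8.72-fold lower (6.79 to 11.5). The gene chr13.tRNA71-AlaAGC had 86 and 37 counts and was 3.74-fold lower (2.54 to 5.70). Under 100 summed counts, and chosen after its values were seen, chr13.tRNA75-ThrCGT had 46 and 6 counts and was 11.6-fold lower (5.30 to 35.6).

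In contrast to chr13.tRNA981-AspGTC, other Asp genes stood near 0. The Asp gene chr5.tRNA1316-AspGTC, which has the same sequence as chr13.tRNA981-AspGTC, had 30 and 53 counts and a log2 ratio of 0.11. A further Asp gene, chr10.tRNA856-AspGTC, which differs in sequence, had 1031 and 1347 counts and a log2 ratio of -0.31. The former lies below 0 with library totals, and both were picked with their values in view. Of the 4 Asp genes over the minimum, 1 was lower, or all 4 with library totals.

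The Lys genes divided in the same way. The gene chr9.tRNA1514-LysCTT had 112 counts in wild type and 403 in Kap1 KO, a ratio of 2.21 (1.80 to 2.76). The gene chr1.tRNA1268-LysCTT had 115 and 407 counts, a ratio of 2.18 (1.77 to 2.71). Both were picked with their values in view, and with library totals both lay just below 1, while chrX.tRNA643-LysCTT was lower with every scale.

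Met genes, whose isotype holds the initiator and the elongator tRNA, were described by 4 of the 9 over the minimum. Of the 9, 2 not described here lay above 0, the highest at 0.22, or 0 with library totals. The gene chr15.tRNA913-MetCAT had 1400 and 1302 counts and was 1.74-fold lower (1.62 to 1.88). Its copy of equal sequence, chr8.tRNA783-MetCAT, had 1399 and 1285 counts and was 1.77-fold lower (1.64 to 1.91). On chromosome 13, chr13.tRNA999-MetCAT had 168 and 117 counts and was 2.33-fold lower (1.83 to 2.97). Its equal, chr13.tRNA61-MetCAT, had 163 and 116 counts and was 2.28-fold lower (1.79 to 2.92). Genes of equal sequence had nearly equal counts here.

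Glu genes lay on both sides of 0. Of the 8 Glu-TTC genes, 6 lay below 0, 4 of them at least 2-fold lower, or 0 with the median of ratios and 6 with library totals, and their median lay below 0 with every scale. The lowest, chr13.tRNA105-GluTTC, had 114 counts in wild type and 90 in Kap1 KO and was 2.05-fold lower (1.54 to 2.74), which is under 2-fold with the median of ratios. In contrast, chr3.tRNA286-GluTTC had 39 and 116 counts, a log2 ratio of 0.86, or -0.30 with library totals. The Glu-CTC gene chr17.tRNA720-GluCTC had 887 and 2211 counts. The other, chr12.tRNA886-GluCTC, had 1109 and 2395 counts, and the median of the 2 was 0.52, or -0.65 with library totals. Over the whole isotype the Glu median was -0.93 while its summed counts, most of them from Glu-CTC, gave 0.24, or below 0 with library totals. The Glu genes named here were picked with their values in view.

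Tyr and Cys tRNA genes stood lower. All 9 Tyr genes over the minimum were below 0 with every scale. The lowest, chr13.tRNA106-TyrGTA, had 79 and 36 counts and was 3.53-fold lower (2.37 to 5.43). The highest, chr5.tRNA109-TyrGTA, had 185 and 184 counts and was 1.63-fold lower (1.32 to 2.01). Both Cys genes were lower as well. The gene chr17.tRNA458-CysGCA had 116 and 54 counts and was 3.47-fold lower (2.50 to 4.90). The other Cys gene, chr11.tRNA1444-CysGCA, had 120 and 79 counts and was 2.46-fold lower (1.84 to 3.31). These Tyr and Cys genes were named once their values had been seen.

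Genes of equal sequence were set beside each other, although their reads may be shared or split between them. Of the 371 tRNA genes, 289 were located in mm9 with a sequence, and 184 of them fell into 52 sets of equal sequence. In 26 sets at least 2 genes had the minimum, and the median range of log2 ratios within a set was 0.24. The largest range was 3.51, in the Asp-GTC set of 9 genes that holds the Asp pair shown above. No set held both a gene at least 2-fold higher and another at least 2-fold lower. In 13 sets the summed counts of the genes differed over 10-fold, and in 7, 3 of them with no gene over the minimum, all genes had equal counts. How reads were placed among equal genes was not tested. Genes with 1 copy among the listed ones had a median of -0.55 and those with 2 or more copies -0.53, with 27.0% and 19.4% lower. An order of the ratios by number of copies was not tested.

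Chromosome 13 holds the largest number of listed tRNA genes, 100 of the 371, and these stood lower as a group. Of the 49 with the minimum, 0 were higher and 19 lower (38.8%), or 14 lower with the median of ratios and 48 with library totals, 48 lay below 0, and the median was -0.92. On all other chromosomes, 11 of 117 genes were higher and 20 lower (17.1%), or 14 and 14 with the median of ratios and 0 and 84 with library totals, with a median of -0.31. The summed counts of these other genes gave 0.04, on the other side of 0 from their median, or below 0 with library totals. The exception on chromosome 13 was chr13.tRNA110-GlyGCC, chosen after its value was seen, with 29 and 73 counts and a log2 ratio of 0.62, or -0.54 with library totals. The 76 chromosome 13 genes that were located all lay between 21 and 24 Mb.

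Chromosome 13 and the rest were also compared within isotypes. In 8 of the 8 isotypes with at least 2 genes on each side, the chromosome 13 genes had the lower median. For Met the medians were -1.19 on chromosome 13 (5 genes) and -0.35 elsewhere (4), and for Tyr -1.62 (5) and -0.85 (4). For Arg they were -0.74 (8) and -0.55 (15), and for Ala -0.82 (7) and -0.67 (8). The distance was largest for Lys, at -1.13 (2) and 0.37 (8), the latter below 0 with library totals. It was smallest for Leu, at -0.44 (6) and -0.30 (9).

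The end of a tRNA gene for RNA polymerase III is a run of T. The 107 genes with TTTT within 20 bases after their end had a median of -0.59, with 6 higher and 28 lower (26.2%, beside 23.5% of all tRNA genes), or 0 and 89 with library totals and 9 and 18 with the median of ratios. The 15 with a first TTTT later in the 200 bases after their end had a median of -0.41, with 3 higher and 1 lower, or 0 and 10 with library totals, and the 8 with no TTTT there -0.27. The medians lay below 0 with every scale, but the summed counts did not: they gave -0.51 for the first group, 0.70 for the second and 0.35 for the third, the last 2 below 0 with library totals.

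In Hepa 1-6 cells fewer sequences were past 2-fold. The pairs differ in cell type, in the kit that removed ribosomal RNA, in knock-out against knock-down and in total counts. These cannot be told apart. The Hepa 1-6 totals were 26249204 counts in control and 29223566 in Kap1 KD. Library totals would shift the log2 ratios of that pair by -0.81. Of 339 sequences with the minimum, 13 (3.83%) were at least 2-fold higher and 9 (2.65%) lower in the Kap1 KD library than in the control. Among the 254 sequences with the minimum in both pairs, 8 were higher in both and 0 lower in both. Of these 254, only 10 were higher and 5 lower in Hepa 1-6, beside 18.4% higher and 15.7% lower of the 261 in hepatocytes. All 8 were snoRNAs, and 0 of 162 tRNA genes were higher in Hepa 1-6, so no tRNA gene could be among them. With library totals in both pairs, an alternative chosen after the data were seen, 54 were past 2-fold in the same direction in both. For the sequences with the minimum in both pairs, the box C/D median exceeded the tRNA median by 0.70 in Hepa 1-6 (0.49 to 0.97), beside 1.63 in hepatocytes. It exceeded the box H/ACA median by 0.32 (-0.07 to 0.75), beside 0.90, so in Hepa 1-6 the distance between the kinds of snoRNA was not separated from 0 by the spread across sequences.

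The snoRNAs with larger ratios in hepatocytes tended to have larger ratios in Hepa 1-6, and the tRNA genes did not. Across 60 box C/D snoRNAs the ratio in hepatocytes and the ratio in Hepa 1-6 had a Spearman's rho of 0.665. Across 32 box H/ACA snoRNAs it was 0.537. Across 162 tRNA genes it was -0.116. The points share 1 library per group, and the pairs share none. Of 92 snoRNAs, 73 were above 0 in both pairs and 5 below 0 in both, while of 162 tRNA genes 12 were above and 72 below in both. The signs rest on TMM scaling: with library totals 29 of the 95 snoRNAs measured in hepatocytes lay above 0.

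The 5 snoRNAs with the largest ratios in hepatocytes lay above 0 in Hepa 1-6 as well, while others with large ratios lay nearer 0 there. Snord88c had 62701 counts in control and 126990 in Kap1 KD Hepa 1-6, a log2 ratio of 1.67 beside 2.91 in hepatocytes. Snord12 had 10229138 and 12927993 counts, a log2 ratio of 0.99 beside 2.89. Snord34 had a log2 ratio of 1.09 beside 2.37, and Snord47, which is not among the 5, 1.04 beside 1.37. In contrast, Snord58b had 0.46 beside 1.55, and Snord68, picked with its value in view, 0.19 beside 1.95, and in Hepa 1-6 both lie below 0 with library totals. For the reference Snord104 the log2 ratio was 0.25 beside -0.02, and the former lies below 0 with library totals. The other references were again above it, Snord35a at 0.99 and Snord53 at 1.14.

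The 3 tRNA genes with the smallest ratios in hepatocytes, among those with at least 100 summed counts, did not stand out in Hepa 1-6. There chr13.tRNA981-AspGTC had 267900 counts in control and 154893 in Kap1 KD, a log2 ratio of -0.14 beside -3.39 in hepatocytes. For chr13.tRNA978-SerAGA the counts were 28794 and 16521, a log2 ratio of -0.15 beside -4.31. For chrX.tRNA936-GlnTTG they were 27622 and 13789, a log2 ratio of -0.35 beside -3.40. All 3 are among the 10 tRNA genes most counted in control Hepa 1-6, while in wild-type hepatocytes they had 288, 189 and 133 counts. For chromosome 13 as a whole the Hepa 1-6 median was -0.05, and for the other chromosomes -0.13.

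**Figure D5:**
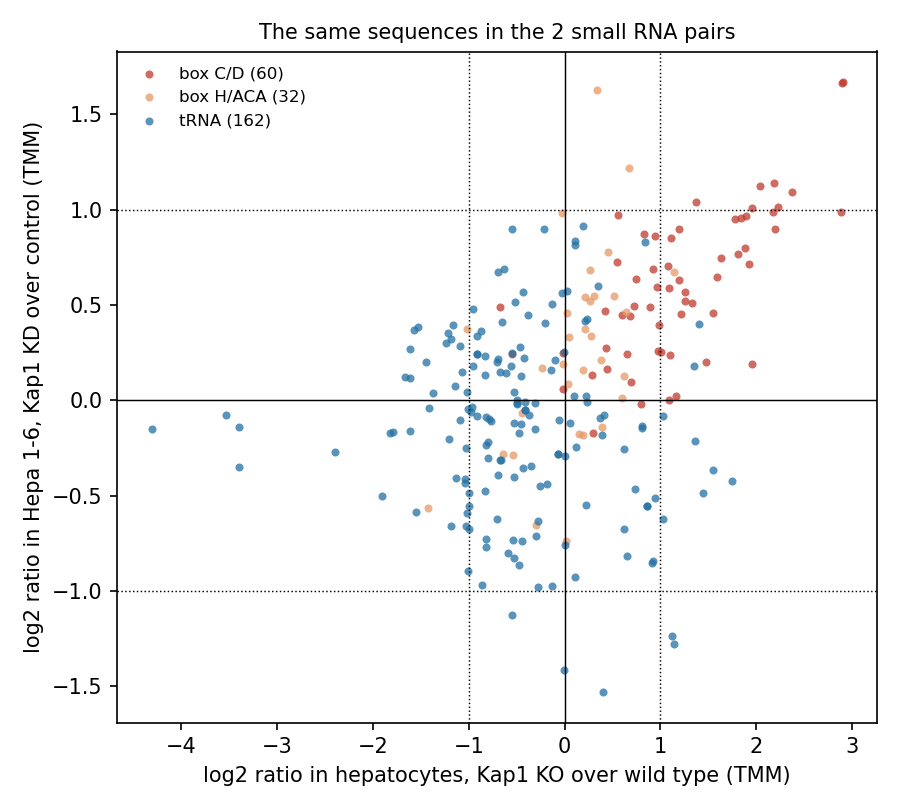
Log2 ratio of Kap1 KO over wild type in hepatocytes (x, TMM) and of Kap1 KD over control in Hepa 1-6 (y, TMM) for 254 sequences with the minimum in both pairs, 1 point per sequence. Box C/D snoRNAs lie mostly at the upper right. With library totals those with log2 ratios under 1.16 in hepatocytes move below 0 there. The Hepa 1-6 axis shifts by -0.81, where the box C/D median with TMM is 0.59. Of the 162 tRNA genes 72 lie below 0 in both pairs, without a common order of ratios (rho -0.116).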

How the data were processed

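Total RNA had been extracted with Trizol and miRNeasy, ribosomal RNA removed with a GeneRead kit for hepatocytes and a Ribo-zero kit for Hepa 1-6, and libraries made with a TruSeq stranded kit. The authors deposited a read count for each tRNA gene and snoRNA, named as extended by 200 bases on either side. The authors also deposited a normalized signal, which is that count over a factor for each library, and its value per length; the signal was used only to obtain the factor. The submitters' notes name TopHat2 2.0.11, HTSeq 0.6.1 and mm9; the RNA-Seq methods set TopHat to report 1 alignment per read (-g 1), but whether this was used for small RNA is not given in the sources used here. The hepatocyte table repeats each library in a second column, equal in all 467 sequences, which was not counted as a replicate. Kap1 (Trim28) and cell type markers are not in this table (0 listed), so neither genotype nor cell type was checked. The mRNA table is not analysed here.

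Log2 ratios used TMM factors of edgeR 4.0.16 in R 4.3.3, 0.5 added to each count and a minimum of 50 summed counts; called means at least 2-fold. With 1 library per group no test was run. Intervals of ratios are exact 95% binomial intervals, and those of medians come from order statistics. Alternatives covered scale, minimum, pseudocount, fold, the most counted and identical sequences. Python 3.11.15 with numpy 2.4.6, pandas 2.3.3, scipy 1.17.1 and matplotlib 3.10.9 was used. The computation of the ratios was also tried on simulated counts. Changes there were drawn from both directions alike, so that trial cannot judge the choice of scale in these libraries.

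Named by rule were, in each class, the 5 largest and 5 smallest ratios among sequences with at least 100 summed counts, the 5 most counted, and up to 4 members of each list: RT-qPCR references, pre-rRNA processing, Snhg1, Gas5 and Rpl13a hosts, imprinted loci, scaRNAs, selenocysteine and methionine tRNA. The members and lists were chosen with earlier results of these data known. Sequences were read from mm9, and 87 of 96 snoRNAs were placed by name, length or host gene. Of 371 tRNA genes, 289 were placed by chromosome, length, anticodon and at least 15 of 17 paired positions. Their places also had to hold TTCGA or TTCAA in the T loop and follow the order of the numbers in the names. Some sequences and a host gene are not reported here.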

Additional observations from a re-analysis of the deposited data

Results flagged for a closer look

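With TMM scaling, the 2 pairs of libraries differed in direction for 5 results, namely genes that were past 2-fold in opposite directions and isotype medians that lay on opposite sides of 0 and at least 2-fold apart. With 1 library per group, the difference was not tested for any of them, and the signs are those of TMM scaling. Medians here are over the genes with the minimum in both pairs.

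The largest distances were those of Lys and Tyr genes. The gene chr9.tRNA1514-LysCTT had a log2 ratio of 1.15 in hepatocytes and -1.28 in Hepa 1-6, a difference of 2.42. The gene chr1.tRNA1268-LysCTT had 1.12 and -1.23, a difference of 2.36. For 9 tRNA-Tyr genes the medians were -1.57 and 0.20, a difference of -1.78. For 10 tRNA-Pro genes they were 0.84 and -0.43, a difference of 1.27, and for 8 tRNA-Met genes -0.81 and 0.31, a difference of -1.12. With library totals in both pairs, each of these 5 results lay below 0 in both, so that none differed in direction. In hepatocytes and Hepa 1-6 the values were then -0.02 and -2.08 for chr9.tRNA1514-LysCTT, -0.04 and -2.04 for chr1.tRNA1268-LysCTT, -2.74 and -0.60 for Tyr, -0.32 and -1.24 for Pro, and -1.98 and -0.50 for Met.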

How the results depend on the processing

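No paired analysis was possible because each genotype has 1 library. Against 48 sequences higher and 41 lower (53.9% of calls higher), library totals gave 8 and 150 (5.1%); this follows from the shift of all ratios. The median of ratios and the authors' factor gave 66.3% of calls higher. Without the 10 most counted sequences 26 were lower (66.7% of calls higher). The TMM scale was computed anew without them, and the medians moved up, to -0.36 for tRNA genes and 0.39 for box H/ACA snoRNAs. A minimum of 1 count gave 81 and 85 and a 1.5-fold threshold 79 and 80, since more sequences are then counted. With library totals 54 sequences were past 2-fold the same way in both pairs, against 8; this alternative was chosen after seeing the data.

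Of results at least 2-fold from equal, library totals reversed the box C/D median (-0.061), the tRNA-Pro-TGG median (-0.0075), the tRNA-His-GTG median (-0.14), chr2.tRNA1432-HisGTG (-0.14), Snora44 (-0.021), Snord65 (-0.0066), chr1.tRNA1268-LysCTT (-0.043) and chr9.tRNA1514-LysCTT (-0.019), by the same shift; others under 2-fold also fell below 0, as the box H/ACA median (-0.95), the tRNA-Pro median (-0.22), the tRNA-His median (-0.23), Snord99 (-0.24) and Snord49a (-0.20). They moved 62 of 68 named sequences and 26 of 36 families beyond their intervals, all downward; the median of ratios moved 31 and 8, all upward. A pseudocount of 5 moved 0. The snoRNA minus tRNA difference, 1.26, ranged from 1.14 to 1.58, and the box C/D minus box H/ACA difference from 0.88 to 0.91. Ratios of tRNA genes with few counts are limited by depth, and no result has a replicate.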

Other observations

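The tRNA genes most counted in control Hepa 1-6 cells differed in direction in the hepatocyte pair. Of the 10 with the most counts there, 6 were at least 2-fold lower and 1 was higher in hepatocytes, or 7 and 0 with library totals, beside 39 lower (23.5%) and 11 higher (6.63%) of all 166 tRNA genes, with a median log2 ratio of -1.39, while their median in Hepa 1-6 was -0.10. Their summed counts, 9503 in wild type and 18736 in Kap1 KO, gave 0.28, opposite in sign to the median, or below 0 with library totals. The gene that was higher is chr2.tRNA1432-HisGTG, with a log2 ratio of 1.02 in hepatocytes, or -0.14 with library totals. Across 162 tRNA genes, counts in wild-type hepatocytes and in control Hepa 1-6 had a Spearman's rho of 0.266, against 0.842 between wild-type and Kap1 KO hepatocytes (n = 166). Across 92 snoRNAs the former was 0.797. These correlations are across sequences of the same libraries, which are not independent. These 10 genes were looked at after their values were seen.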
